A study of Bos taurus with 90 samples.

Results

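The miR-15 and miR-16 family of miRNAs was followed by its 6 named members, miR-15a, miR-15b, miR-16a, miR-16b, miR-195 and miR-497, in 90 small RNA libraries of lactating dairy cows. All 6 were among the 388 miRNAs listed in any of the 5 tissues and among the 289 listed in all 5. The members were chosen by name, with earlier results of these data already known. Total RNA came from rumen epithelium, duodenum epithelium, jejunum epithelium, liver and mammary gland of Chinese Holstein cows in mid-lactation whose forage was alfalfa hay, corn stover or rice straw. Each of the 15 groups of tissue and diet held 6 libraries, so a tissue had 18. All 5 tissues were taken from each of 18 cows, so the libraries of different tissues share animals, although the labels do not say which sample numbers belong to 1 cow. The labels name no drug, allele or unfed state, and differences are given against alfalfa hay or between the crop residues. An age is not given in the labels, nor is a sequencing batch.

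A miRNA is a short RNA that guides Argonaute proteins to partly matching sites in messenger RNAs, which are then translated less or degraded. The members of this family begin with the same seed, the stretch near the 5′ end that decides which sites are bound, so they can share targets. Known targets include the cell cycle genes CCND1 and CCNE1 and the survival gene BCL2, and the family is best known for holding cells in G1 and favouring apoptosis. It is made from separate loci. In the RefSeq cattle annotation (ARS-UCD2.0) MIR15A lies next to MIR16A, MIR15B next to MIR16B and MIR195 next to MIR497, each pair within 1 kb. The mature miR-16 of the 2 loci differs little, so the alignment could have shared reads between miR-16a and miR-16b, and how their reads are split is not certain. The second arm of each hairpin had no listed row, and the related miR-424-5p, which is usually counted in the same seed family, was listed in all 5 tissues.

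Levels are given as CPM, the reads of a miRNA per 1000000 reads mapped to all annotated miRNAs. The libraries held between 937556 and 15621501 such reads, and 3 reads were worth between 0.192 and 3.20 CPM. The fewest reads behind any member value were 18, for miR-15b in 1 mammary gland library. The intervals given for differences are those of the limma fits and rest on the spread between libraries. The hepatocyte miRNA miR-122 lay between 8671 and 12721 CPM in liver and was at most 48.5 CPM in mammary gland. For miR-205 of stratified epithelium the range was 23016 to 52132 CPM in rumen and 768 to 8442 CPM in mammary gland. Not every marker kept to its label. miR-192 of the intestinal epithelium list lay between 113678 and 188688 CPM in liver, against 119672 to 249455 CPM in jejunum. The smooth muscle miRNAs miR-143 and miR-145 summed to between 70758 and 296908 CPM over the 90 libraries, also in those labelled epithelium. In such bulk RNA, fewer cells of a type and less RNA per cell cannot be told apart. A single liver library (alfalfa hay 2) held miR-205 at 1525 CPM against at most 13.0 CPM in the other 17. Of the 18 mammary gland libraries, 4 stood apart. These were alfalfa hay 1 and rice straw 1, 4 and 5, whose median Spearman correlation with the other mammary gland libraries (members left out) was between 0.907 and 0.946, against 0.954 to 0.984 in the other 14. Their mapped reads were fewer, between 937556 and 2624975 against 4421565 to 14328839. The 4 were those with the lowest correlation. Rice straw 3 (0.954) and rice straw 2 (0.955) came next, and every remaining library had at least that of corn stover 5 (0.975). The differences of the members between rice straw and corn stover in mammary gland are given with and without the 4 libraries. Rice straw 2 and 3 stay in both.

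By tissue mean the family took between 0.501% and 1.01% of all mapped miRNA reads. Its summed level was 7977 ± 1385 CPM for rumen, 9874 ± 1381 CPM for duodenum, 10129 ± 1550 CPM for jejunum, 5009 ± 415 CPM for liver and 6474 ± 2699 CPM for mammary gland (SD, n = 18 in each). The highest liver library, at 5576 CPM, lay below the lowest of duodenum (7746 CPM) and of jejunum (7812 CPM). Mammary gland spread the most, from 881 to 9820 CPM. Its 4 libraries that stood apart held between 881 and 2735 CPM, and the other 14 between 5509 and 9820 CPM.

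Most family reads were miR-16. In rumen miR-16b took 51.8% ± 4.7 of the family, in duodenum 45.5% ± 3.4 and in jejunum 42.7% ± 3.3, and miR-16a took a further 23.8%, 23.6% and 22.3%. In liver the miR-16 pair was even, with 27.1% each, and in mammary gland miR-16a led with 32.8% ± 6.0 against 25.2% ± 3.9 for miR-16b. The ratio of miR-16a to miR-16b was accordingly 0.468 ± 0.091 for rumen, 0.523 ± 0.070 for duodenum, 0.5264 ± 0.078 for jejunum, 1.02 ± 0.30 for liver and 1.34 ± 0.36 for mammary gland (SD, n = 18 in each). A share here is one of reads, and the ratios inherit any sharing of reads between the 2 sequences.

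The other members divided the rest unevenly. miR-15a, the partner of miR-16a, took between 9.45% and 11.6% of the family in 4 tissues and 20.8% ± 3.3 in liver. miR-15b was the smallest part everywhere, from 3.33% in rumen to 0.718% in mammary gland. miR-195, known for halting the division of heart muscle cells after birth, and miR-497 together made 11.4% for rumen, 19.5% for duodenum, 23.2% for jejunum, 24.2% for liver and 29.6% for mammary gland. By neighbouring pairs, MIR15B with MIR16B gave 55.1% of the family in rumen but 27.9% in liver and 25.9% in mammary gland, where MIR15A with MIR16A gave 47.9% and 44.5%.

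**Figure D1:**
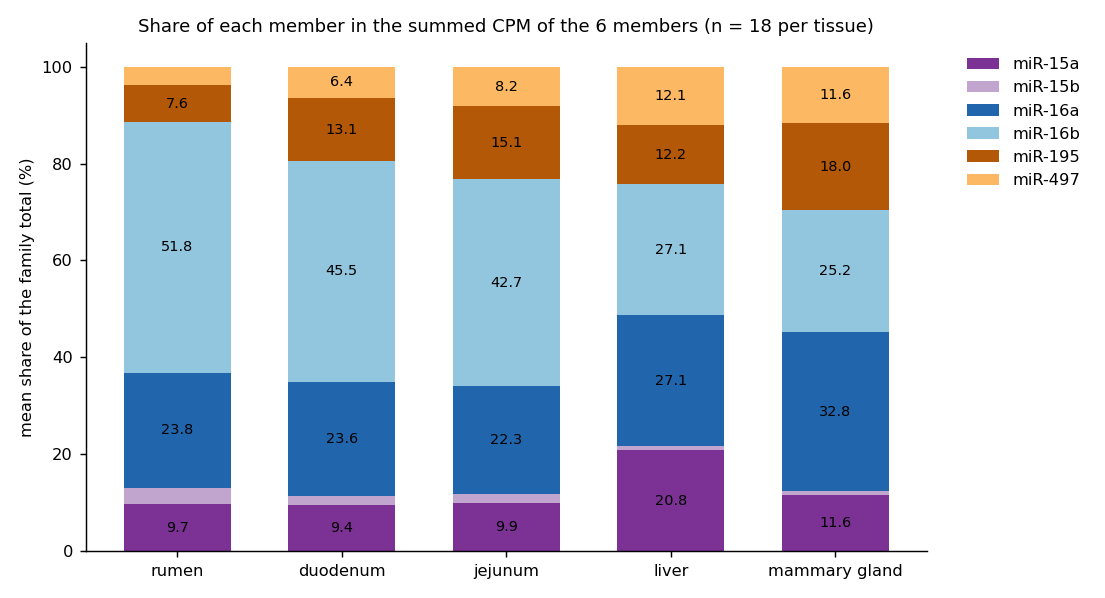
Stacked bars show the mean share (%) of each of the 6 members in the summed CPM of the family in each tissue (n = 18 libraries per tissue, no error bars). miR-16b falls from 51.8% in rumen to 25.2% in mammary gland, while miR-195 and miR-497 take a larger part in mammary gland than in rumen.

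The first question was how the tissues differ. Of the 60 comparisons of a member between 2 tissues, 38 passed an adjusted p under 0.05 (limma, Benjamini-Hochberg over all 289 miRNAs of the pair). All 289 miRNAs also differed widely between tissues, so these counts stand against a high background. Of all miRNAs, 72.7% passed between duodenum and rumen, 75.8% between jejunum and rumen, 84.4% between liver and rumen, 84.8% between mammary gland and rumen, 82.7% between liver and duodenum, 82.7% between mammary gland and duodenum, 84.8% between liver and jejunum, 81.3% between mammary gland and jejunum and 70.2% between mammary gland and liver. Members passed in 3, 4, 5, 4, 4, 5, 5, 5 and 3 of 6 cases in that order. With the diet and number taken to mark a cow as a block, 4 of the 38 were lost: miR-15a between jejunum and rumen (limma adjusted p = 0.0596), miR-16a between mammary gland and duodenum (0.0544), and miR-497 between liver and jejunum (0.0584) and between mammary gland and jejunum (0.0955). Between jejunum and duodenum none of the 6 members passed, against 11.4% of all miRNAs. There miR-497 was 0.40 (log2) higher in jejunum, and it did pass in 2 of 9 alternative analyses. In that pair 33 of 289 miRNAs passed by limma and 69 had an unadjusted p under 0.05.

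**Figure D2:**
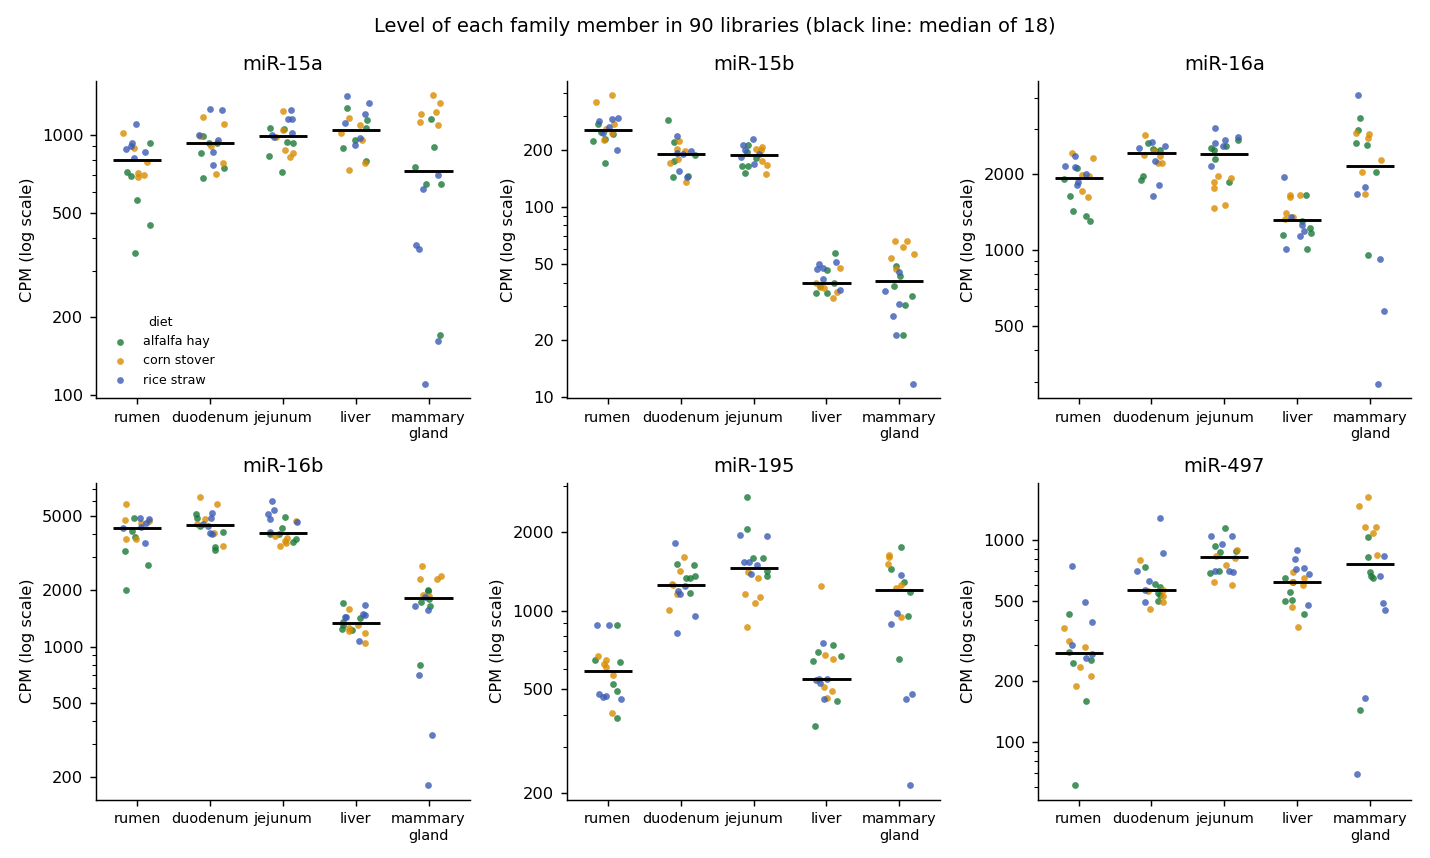
Each point is the level of a member in 1 library (CPM, log axis), by tissue and coloured by diet, and the black line is the median of 18. miR-15b and miR-16b sit high in rumen, duodenum and jejunum and low in liver and mammary gland, while miR-497 is lowest in rumen, and the mammary gland points spread the widest.

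miR-15b and miR-16b, from 1 locus, shared a pattern: high in the 3 parts of the gut and low in liver and mammary gland. The level of miR-15b was lowest 170, median 253 and highest 386 CPM in rumen. In duodenum it was 135, 189 and 286 CPM, and in jejunum 148, 187 and 229 CPM. In liver it was 33.04, 39.8 and 57.6 CPM, and in mammary gland 11.8, 41.0 and 66.4 CPM. Every library of liver and mammary gland therefore lay below every library of the gut. Such a lack of overlap was seen for 32.2% of all miRNAs between liver and rumen, 38.4% between liver and duodenum and 30.1% between liver and jejunum. For mammary gland it was seen for 14.5% against rumen, 13.8% against duodenum and 15.2% against jejunum.

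The level of miR-15b was 6.03-fold lower in liver than in rumen (log2 difference -2.59, SE 0.11, limma adjusted p = 2.62e-38) and 6.63-fold lower in mammary gland than in rumen (-2.73, SE 0.11, limma adjusted p = 9.87e-40), fold changes being on the log2(CPM + 1) scale throughout. Rumen also exceeded duodenum 1.39-fold (limma adjusted p = 4.72e-05). On the deposited scale neither jejunum and duodenum nor mammary gland and liver differed beyond their spread in miR-15b, with adjusted p of 0.984 and 0.240 (limma). Mammary gland was lower than liver by 0.35 (log2) with TMM scaling (limma adjusted p = 0.000258), by 0.53 with upper-quartile scaling and by 0.34 in edgeR, and these passed. The 8 differences of miR-15b that passed kept their direction and passed in all 9 alternatives.

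The level of miR-16b, the most abundant member in the gut, was lowest 1998, median 4313 and highest 5777 CPM in rumen. In duodenum it was 3297, 4468 and 6301 CPM, and in jejunum 3442, 4059 and 6013 CPM. In liver it was 1043, 1335 and 1716 CPM, and in mammary gland 181, 1816 and 2687 CPM. Liver did not overlap with any part of the gut, while mammary gland overlapped with rumen but not with duodenum or jejunum. The highest liver value, 1716 CPM, came from the library that held miR-205, and the liver mean was 1356 CPM with it and 1335 CPM without it.

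Against rumen the level of miR-16b was 3.01-fold lower in liver (log2 difference -1.59, SE 0.15, limma adjusted p = 3.68e-17) and 2.90-fold lower in mammary gland (-1.54, SE 0.15, limma adjusted p = 2.14e-16). The 3 parts of the gut did not differ from each other beyond their spread, with limma adjusted p between 0.395 and 0.847. That comparison depended on scaling: with trimmed-mean (TMM) scaling, which sets libraries level by their typical miRNA, miR-16b was 0.41 (log2) higher in duodenum than in rumen (limma adjusted p = 0.00323). The 6 differences of miR-16b that passed did so in all 9 alternatives.

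miR-16a moved less. Its level was lowest 1305, median 1931 and highest 2409 CPM in rumen, and 1626, 2424 and 2859 CPM in duodenum. In jejunum it was 1462, 2394 and 3050 CPM, in liver 1008, 1311 and 1938 CPM, and in mammary gland 295, 2149 and 4088 CPM. Liver was the lowest tissue by mean, and all pairs of tissues overlapped. The level was 1.73-fold lower in liver than in duodenum (log2 difference -0.79, SE 0.15, limma adjusted p = 9.59e-07), alone among the 5 differences of miR-16a that passed in all 9 alternatives. Between liver and rumen the difference was -0.48 (limma adjusted p = 0.00184) on the deposited scale, -0.04 with TMM scaling and 0.23 with upper-quartile scaling. The median of all 289 miRNAs in that pair was -0.47, -0.06 and 0.21 under the same 3 scalings.

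miR-15a was the flattest member in the gut and liver. Its level was lowest 350, median 797 and highest 1101 CPM in rumen, 682, 925 and 1249 CPM in duodenum, and 721, 990 and 1247 CPM in jejunum. In liver it was 731, 1037 and 1410 CPM, and in mammary gland 111, 724 and 1413 CPM. The tissue means lay between 774 and 1041 CPM, and every pair of tissues overlapped. The level was 1.37-fold higher in liver than in rumen (log2 difference 0.45, SE 0.15, limma adjusted p = 0.00348). It was 1.65-fold lower in mammary gland than in liver (-0.72, SE 0.15, limma adjusted p = 9.22e-06), although mammary gland without the 4 libraries averaged 938 CPM against 774 CPM with them. Of its 5 differences that passed, 3 did so in all 9 alternatives.

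miR-195 and miR-497, cut from 1 transcript, were lower in rumen than in the intestine. The level of miR-195 was lowest 387, median 586 and highest 880 CPM in rumen and 360, 547 and 1249 CPM in liver. In duodenum it was 821, 1256 and 1814 CPM, in jejunum 869, 1459 and 2727 CPM, and in mammary gland 214, 1201 and 1762 CPM. The intestine and mammary gland were thus the high tissues, with overlap at the edges. Against rumen miR-195 was 2.56-fold higher in jejunum (log2 difference 1.36, SE 0.14, limma adjusted p = 2.43e-14), 2.18-fold higher in duodenum (1.13, SE 0.14, limma adjusted p = 2.98e-11) and 1.71-fold higher in mammary gland (0.77, SE 0.14, limma adjusted p = 9.40e-07). Jejunum did not differ from duodenum beyond the spread (limma adjusted p = 0.355). Liver did not differ from rumen on the deposited scale (limma adjusted p = 0.876), but was 0.46 (log2) higher with TMM scaling and 0.74 higher with upper-quartile scaling.

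The level of miR-497 was lowest 60.8, median 276 and highest 741 CPM in rumen. It was 455, 568 and 1283 CPM in duodenum, 600, 823 and 1149 CPM in jejunum, 371, 618 and 891 CPM in liver, and 69.4, 758 and 1629 CPM in mammary gland. Rumen was the low tissue, and the other 4 lay within a mean of 607 to 826 CPM. Against rumen miR-497 was 2.97-fold higher in jejunum (log2 difference 1.57, SE 0.19, limma adjusted p = 1.37e-11), 2.24-fold higher in duodenum, 2.17-fold higher in liver and 2.24-fold higher in mammary gland, and these 4 differences passed in all 9 alternatives. Mammary gland and jejunum differed by -0.40 (limma adjusted p = 0.0484), and by 0.04 (limma adjusted p = 0.783) without the 4 mammary gland libraries. The ratio of miR-195 to miR-497 was 2.43 ± 1.68 for rumen, 2.10 ± 0.43 for duodenum, 1.87 ± 0.43 for jejunum, 1.06 ± 0.41 for liver and 1.804 ± 0.971 for mammary gland (SD, n = 18 in each).

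The related miR-424-5p, made next to MIR503, was far less abundant, with means of 17.9 CPM for rumen, 75.4 CPM for duodenum, 68.1 CPM for jejunum, 37.5 CPM for liver and 57.9 CPM for mammary gland. It was lowest in rumen, 4.14-fold below duodenum (log2 difference 2.05, SE 0.19, limma adjusted p = 1.40e-16). miR-497 was also lowest in rumen and next lowest in liver by mean, but the order of the other 3 tissues differed. The second product of that hairpin, miR-424-3p, was listed in 4 tissues with means of 2.97 to 4.94 CPM, and miR-503-3p in 3 tissues with means of 1.02 to 1.35 CPM.

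Across the 90 libraries the members did not move as 1 block. As a description over libraries that share tissue, the Pearson correlation of log2 levels was 0.90 for miR-15b with its neighbour miR-16b, 0.66 for miR-195 with miR-497, 0.54 for miR-15a with miR-16a, and -0.06 for miR-15b with miR-497. miR-15a was closer to miR-497 (0.72) than to its own neighbour. The non-member closest to miR-15a was miR-29a (0.91), followed by miR-28 and miR-199a-3p. The closest to miR-15b was miR-9-5p (0.93), followed by miR-222 and miR-221, and the closest to miR-16b was miR-6119-5p (0.91), followed by miR-17-5p and miR-221. For miR-16a it was miR-374a (0.80), followed by miR-3613 and miR-29b. For miR-195 it was miR-6524 (0.80), followed by miR-338 and miR-1388-3p, and for miR-497 it was miR-26b (0.78), followed by miR-133a and miR-450b. Within the 18 mammary gland libraries all pairs of members correlated between 0.73 and 0.94, and these values rest in part on the 4 libraries that stood apart.

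The second question was whether forage moved the family in mammary gland. There the family was lower with rice straw than with corn stover. Of the 6 members 5 passed, all lower with rice straw (limma on the 18 mammary gland libraries, adjusted over 323 miRNAs). Of all 323 miRNAs 26.6% passed in this comparison, and 25.1% passed and were lower with rice straw. The median log2 difference was -1.32 over the members and -0.63 over all miRNAs tested, so the typical miRNA was also lower with rice straw on the deposited scale.

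miR-15a showed the clearest difference. Its level with alfalfa hay was lowest 170, median 697 and highest 1147 CPM, with corn stover 1087, 1212 and 1413 CPM, and with rice straw 111, 370 and 701 CPM. All 6 rice straw libraries lay below all 6 corn stover libraries, as they also did for miR-15b, miR-16b and miR-497, a lack of overlap seen for 15.5% of all miRNAs. Rice straw was 3.81-fold lower than corn stover (log2 difference -1.93, SE 0.45, limma adjusted p = 0.0116). Without the 4 libraries that stood apart, 3 of which were from rice straw, the rice straw values were 376, 619 and 701 CPM. These were still below all corn stover values, but no share of all miRNAs is given for 3 libraries against 6. The log2 difference was then -1.16 (limma adjusted p = 0.00342). The difference passed in all 29 alternatives, with values between -2.16 and -1.005. For every member the 29 include leaving out each of the 6 alfalfa hay libraries, which changes the error but not this estimate.

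miR-497 had the next largest difference. Its level with alfalfa hay was lowest 144, median 679 and highest 1028 CPM, with corn stover 846, 1158 and 1629 CPM, and with rice straw 69.4, 469 and 836 CPM. The 2 crop residues were separated by a narrow gap, between 836 and 846 CPM. Rice straw was 3.57-fold lower than corn stover (log2 difference -1.84, SE 0.52, limma adjusted p = 0.0208), and the log2 difference was -0.89 (limma adjusted p = 0.0108) without the 4 libraries. It passed in 25 of the 29 alternatives. It missed the threshold with upper-quartile scaling (-0.91, limma adjusted p = 0.0813), with TMM scaling (-1.09, limma adjusted p = 0.0529), in edgeR (-0.91, adjusted p = 0.0612) and without rice straw replicate 5 (-1.39, limma adjusted p = 0.0584).

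The level of miR-15b was lowest 21.3, median 36.3 and highest 49.1 CPM with alfalfa hay, 47.5, 58.9 and 66.4 CPM with corn stover, and 11.8, 28.8 and 45.5 CPM with rice straw. Corn stover was again the high group, and 45.5 CPM against 47.5 CPM parted it from rice straw. The log2 difference of rice straw from corn stover was -1.11 (SE 0.34, limma adjusted p = 0.0271), and -0.71 (limma adjusted p = 0.0336) without the 4 libraries. The difference passed in 22 of the 29 alternatives. With TMM scaling it was -0.38 (limma adjusted p = 0.315), with upper-quartile scaling -0.20 (limma adjusted p = 0.598), in edgeR -0.32 and in DESeq2 -0.31, none past the threshold, and leaving out rice straw replicate 5 or corn stover replicate 3 or 4 also took it over the threshold, to adjusted p of 0.0645, 0.0609 and 0.0591 (limma).

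The level of miR-16b was lowest 798, median 1765 and highest 1996 CPM with alfalfa hay, 1857, 2285 and 2687 CPM with corn stover, and 181, 1131 and 1832 CPM with rice straw. The 3 rice straw libraries that stood apart held at most 701 CPM, and the other 3 at least 1561 CPM. The log2 difference was -1.53 (SE 0.46, limma adjusted p = 0.0250) with all libraries. Without the 4 it was -0.40 (limma adjusted p = 0.0670) and missed the threshold. The 3 rice straw libraries left lay below all corn stover libraries, but no share of all miRNAs is given for so few libraries. The difference passed in 19 of the 29 alternatives. It was also lost with TMM scaling (-0.78) and upper-quartile scaling (-0.60), in edgeR (-0.50) and DESeq2 (-0.46), without the libraries under 2000000 reads (-0.98), and without rice straw replicate 4 or 5 or corn stover replicate 3 or 4, at adjusted p of 0.0510, 0.0645, 0.0512 and 0.0508 (limma).

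For miR-195 the levels were 651, 1235 and 1762 CPM with alfalfa hay, 946, 1384 and 1638 CPM with corn stover, and 214, 683 and 1368 CPM with rice straw (lowest, median, highest). The groups overlapped. The log2 difference of rice straw from corn stover was -1.11 (SE 0.38, limma adjusted p = 0.0394) and fell to -0.34 (limma adjusted p = 0.280) without the 4 libraries, and it passed in 15 of the 29 alternatives.

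For miR-16a the levels were 951, 2627 and 3331 CPM with alfalfa hay, 1668, 2515 and 2890 CPM with corn stover, and 295, 1294 and 4088 CPM with rice straw. The rice straw group held both the lowest and the highest of the 18 values. The log2 difference from corn stover was -1.09 (95% interval -2.05 to -0.13, limma adjusted p = 0.0812) and did not pass. It passed in 3 of the 29 alternatives, among them leaving out rice straw replicate 3 (-1.47, limma adjusted p = 0.0127). Without the 4 libraries it was -0.05 (limma adjusted p = 0.911).

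**Figure D3:**
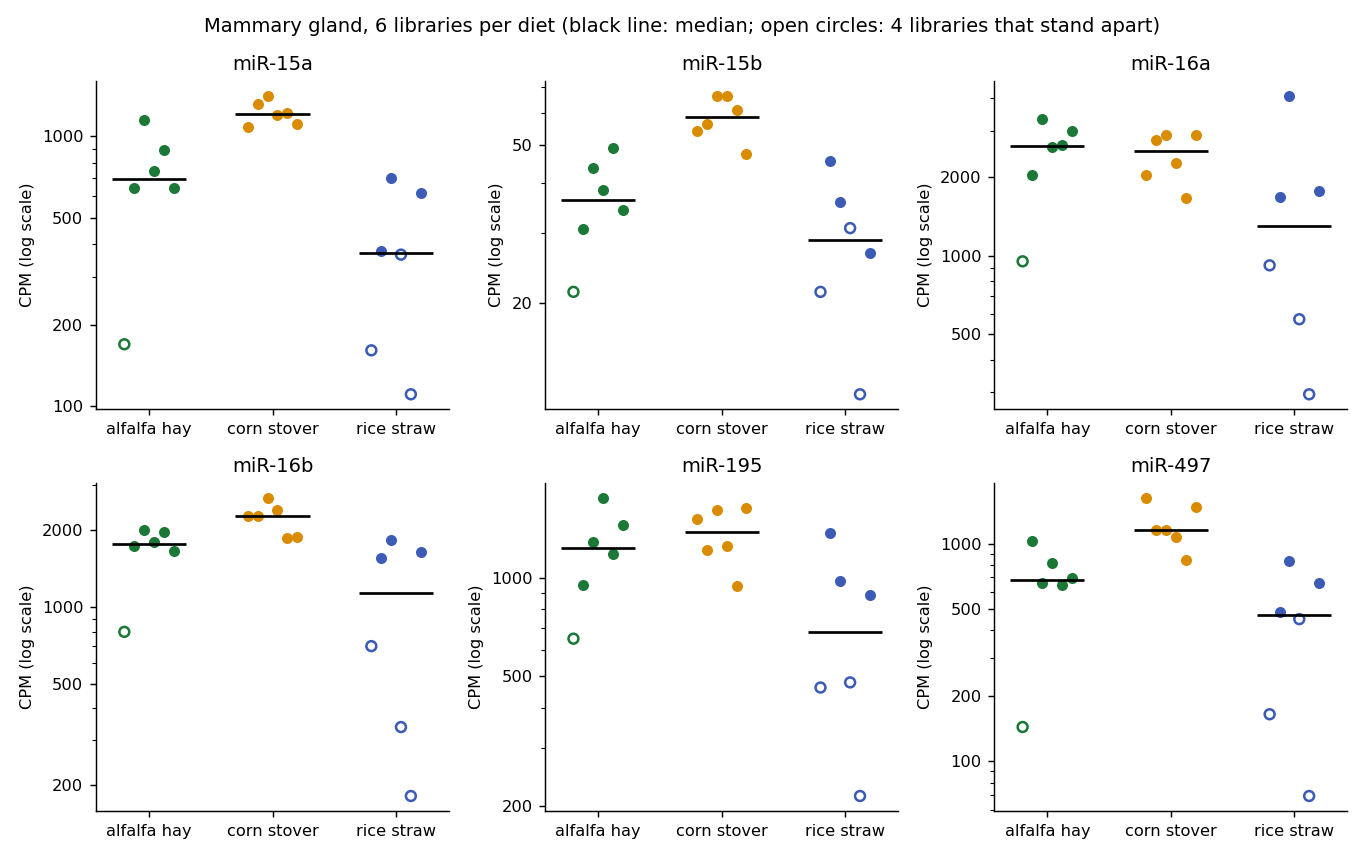
Each point is the level of a member in 1 mammary gland library (CPM, log axis) by diet, with the median of 6 as a black line, and open circles mark the 4 libraries that stood apart. For miR-15a all rice straw points, at most 701 CPM, lie below all corn stover points, at least 1087 CPM, while for miR-16a the groups overlap.

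The size of these differences depended on how the libraries were set level. Without added scaling, all miRNAs had a median log2 difference of -0.63 between rice straw and corn stover. TMM scaling moved that median to -0.0048 and upper-quartile scaling to 0.14. Under TMM scaling the members still had a median of -0.58, with miR-15a at -1.19 (limma adjusted p = 0.0142) and the other 5 between -0.35 and -1.09 with none past the threshold. The share of lower calls among all miRNAs that passed changed with it, from 81 of 86 on the deposited scale to 16 of 36 with TMM scaling and 10 of 41 with upper-quartile scaling. Under every setting shown, miR-15a and miR-497 were the lowest members relative to the median of all miRNAs, as the plot of differences by setting shows.

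**Figure D4:**
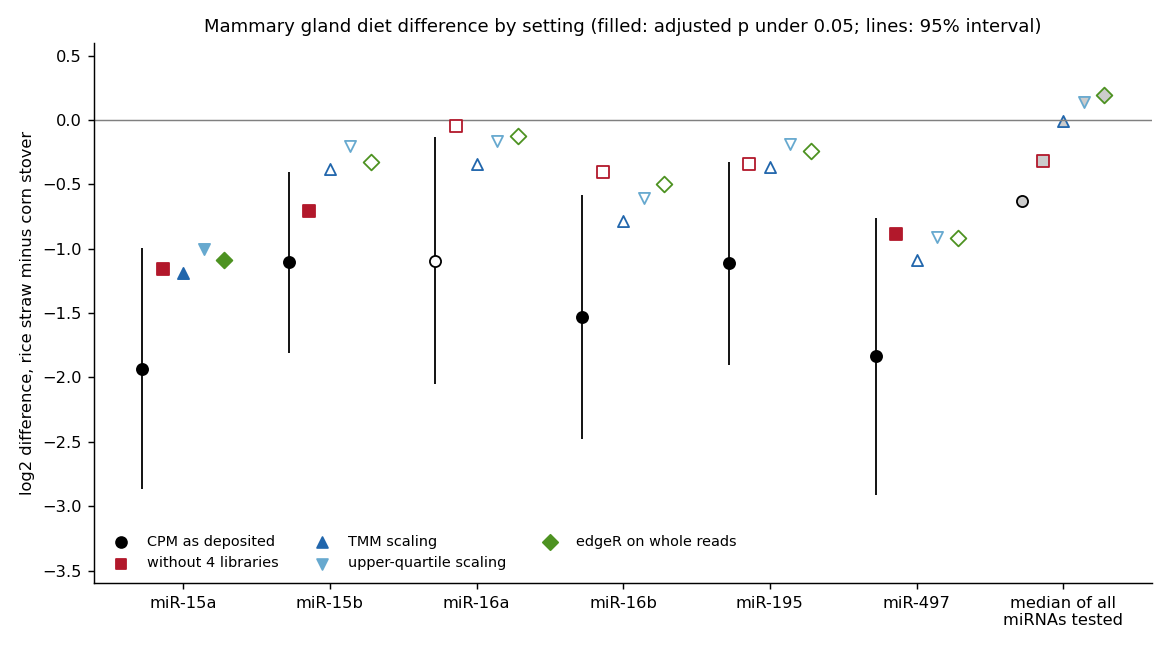
The log2 difference of rice straw from corn stover in mammary gland is drawn for each member, and for the median of all 323 miRNAs tested on the right, under 5 settings. Filled symbols passed an adjusted p under 0.05, lines are 95% intervals of the fit on deposited CPM, and miR-15a is filled under all 5 settings.

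Other measures also varied among the mammary gland libraries. Mapped reads in the 6 corn stover libraries were between 4421565 and 5755198, against 7040454 to 8364602 in the 3 rice straw and 8745879 to 14328839 in the 5 alfalfa hay libraries that did not stand apart. With all libraries, rice straw ran from 1527304 to 8364602 and alfalfa hay from 937556 to 14328839, both spanning corn stover. The leukocyte list (5 of 5 miRNAs listed) summed to between 573 and 2018 CPM in the 4 libraries and to between 3106 and 9370 CPM in the other 14. The epithelial list (5 of 5) summed to between 10598 and 31854 CPM in the 4 and 32549 to 67448 CPM in the 14, the smooth muscle list (2 of 2) to between 176504 and 213356 CPM in the 4 and 70758 to 228169 CPM in the 14, and the red blood cell list (3 of 3) to between 3251 and 4241 CPM in the 4 and 1070 to 2938 CPM in the 14. The endothelial list (2 of 2) summed to between 10201 and 56065 CPM in the 4 and 21582 to 45777 CPM in the 14. Its miR-126-3p had a mean of 2494 ± 1621 CPM in the 4 and 9447 ± 3259 CPM in the 14 (SD). The mean of its miR-126-5p was 29571 ± 22486 CPM in the 4 and 28122 ± 6125 CPM in the 14 (SD). Of the red blood cell list only miR-486 had a higher mean in the 4, at 3581 CPM against 1461 CPM in the 14. The means of miR-451 (125 against 327 CPM) and miR-144 (3.29 against 16.8 CPM) were lower in the 4. Of the smooth muscle list miR-143 had a higher mean in the 4 (196551 against 131777 CPM) and miR-145 a lower one (620 against 1399 CPM). The part of these measures in the family's values was not tested.

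Alfalfa hay lay between the crop residues for 5 members by median, but differed from neither by test. Between corn stover and alfalfa hay the log2 differences ran from 0.07 for miR-16a to 1.06 for miR-497. No member and 0.0% of all 323 miRNAs passed by limma, with 33 at an unadjusted p under 0.05 and 0 by edgeR and DESeq2. Between rice straw and alfalfa hay they ran from -0.39 for miR-15b to -1.05 for miR-16b. Again no member and 0.0% of all miRNAs passed by limma, with 33 at an unadjusted p under 0.05, 0 by edgeR and 13 by DESeq2. For miR-15a the 95% intervals were 0.05 to 1.92 for corn stover and -1.88 to -0.01 for rice straw, each against alfalfa hay.

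The summed level of the family in mammary gland was lowest 2735, median 7431 and highest 8467 CPM with alfalfa hay, 6603, 8705 and 9820 CPM with corn stover, and 881, 3968 and 8472 CPM with rice straw. The corn stover mean was 2.04 times the rice straw mean with all libraries and 1.31 times without the 4, and the groups overlapped both ways. Its composition also varied with diet. With corn stover miR-15a made 14.6% ± 2.2 of the family and miR-497 14.4% ± 2.7, against 10.02% ± 2.58 and 9.62% ± 3.60 with alfalfa hay and 10.3% ± 3.8 and 10.9% ± 4.9 with rice straw (SD, n = 6). miR-16a made 28.2% ± 3.4 with corn stover, 35.9% ± 3.3 with alfalfa hay and 34.5% ± 7.8 with rice straw. Without the 4 libraries miR-15a made 10.8% ± 2.0 with alfalfa hay (n = 5) and 8.71% ± 2.14 with rice straw (n = 3), miR-497 10.49% ± 3.24 and 10.2% ± 1.5, and miR-16a 36.1% ± 3.6 and 36.7% ± 10.03. The log2 ratio of miR-195 to miR-497 was 0.16 ± 0.19 with corn stover, 1.008 ± 0.725 with alfalfa hay and 0.88 ± 0.71 with rice straw. Over 6 comparisons of this ratio and of the ratio of miR-16a to miR-16b, exact two-sided permutation tests gave p from 0.0152 to 0.883 and adjusted p from 0.0909 to 0.883, so none passed, with 0.00216 the smallest p that 6 against 6 libraries allow. The lowest p was that of miR-195 to miR-497 between corn stover and alfalfa hay, a log2 difference of -0.85.

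The same diets were compared in the other tissues. By a limma F test over the 3 diets 1.49% of 335 miRNAs passed for rumen, 0.0% of 336 for duodenum, 23.8% of 336 for jejunum, 0.0% of 326 for liver and 3.72% of 323 for mammary gland. At an unadjusted p under 0.05 the limma counts were 36 in duodenum and 17 in liver. No member passed in rumen, duodenum or liver, where the lowest member adjusted p were 0.141, 0.557 and 0.853. In mammary gland miR-15a passed (adjusted p = 0.0434), but not with a pseudocount of 0.1 CPM (adjusted p = 0.0656). In jejunum miR-16a (adjusted p = 0.00138), miR-195 (0.0165) and miR-16b (0.0302) passed.

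In jejunum corn stover had the lowest mean of the 3 diets for miR-16a, miR-16b, miR-195 and miR-497, while alfalfa hay had it for miR-15a and miR-15b. The corn stover libraries had median Spearman correlations with the other jejunum libraries (members left out) of 0.974 to 0.986. Those of the other diets had 0.985 to 0.990, and the part of this in the jejunum differences was not tested. The level of miR-16a was lowest 1857, median 2516 and highest 2731 CPM with alfalfa hay, 1462, 1808 and 1961 CPM with corn stover, and 2146, 2686 and 3050 CPM with rice straw. Corn stover did not overlap with rice straw, a lack of overlap seen for 13.4% of all miRNAs. Rice straw exceeded corn stover 1.52-fold (log2 difference 0.61, SE 0.12, limma adjusted p = 0.000688), and corn stover was 1.38-fold below alfalfa hay (-0.47, SE 0.12, limma adjusted p = 0.00624), and both passed in all 6 alternatives.

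For miR-195 the jejunum levels were 1357, 1593 and 2727 CPM with alfalfa hay, 869, 1145 and 1412 CPM with corn stover, and 1387, 1535 and 1949 CPM with rice straw. Corn stover was lower than rice straw by 0.50 (log2, SE 0.16, limma adjusted p = 0.0256) and lower than alfalfa hay by 0.60 (SE 0.16, limma adjusted p = 0.0103). With TMM scaling neither passed, at adjusted p of 0.143 and 0.0607. miR-16b was 0.38 (log2, SE 0.11, limma adjusted p = 0.0147) higher with rice straw than with corn stover, and 0.19 (limma adjusted p = 0.130) with TMM scaling. Between corn stover and alfalfa hay 2 of 6 members passed against 22.0% of all 336 miRNAs, between rice straw and corn stover 3 of 6 against 28.6%, and between rice straw and alfalfa hay 0 of 6 against 0.0%, with 18 of 336 at an unadjusted p under 0.05 by limma.

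Whether the mammary gland difference was its own was tested against the mean difference of the other 4 tissues, as an interaction in limma over all 90 libraries. For rice straw against corn stover all 6 members passed and were lower in mammary gland, against 55.4% of all 289 miRNAs that passed and 52.6% that passed and were lower. The interaction was -2.19 (SE 0.37, limma adjusted p = 1.47e-06) for miR-497 and -2.12 (SE 0.28, limma adjusted p = 1.17e-08) for miR-15a, and between -1.16 and -1.64 for the other 4. Mammary gland libraries varied more than the others, with an estimated weight of 0.318 against 0.859 to 1.802, so a spread common to all tissues gives too small a p for this tissue. With a spread of its own for each tissue all 6 members still passed, with limma adjusted p between 2.30e-05 and 0.0202. Without the 4 libraries miR-16a (-0.12, limma adjusted p = 0.628) and miR-195 (-0.38, limma adjusted p = 0.254) no longer passed. Both also missed the threshold with TMM scaling (-0.42 and -0.40), and with upper-quartile scaling miR-15b (-0.22, limma adjusted p = 0.333), miR-16a (-0.20) and miR-195 (-0.18) did.

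For rice straw against alfalfa hay 5 members passed the interaction, all lower in mammary gland, against 22.5% of all miRNAs that passed and 20.8% that passed and were lower. The values ran from -0.81 for miR-195 to -1.27 for miR-16b. For corn stover against alfalfa hay miR-15a (0.86, limma adjusted p = 0.0389) and miR-15b (0.67, limma adjusted p = 0.0308) passed, against 12.8% of all miRNAs. With a spread for each tissue no member passed in either of these 2 contrasts. Without the 4 libraries only miR-15a still passed for rice straw against alfalfa hay (-0.86, limma adjusted p = 0.00312), with miR-16a at -0.35, miR-16b at -0.34, miR-195 at -0.20 and miR-497 at -0.62, and no member passed for corn stover against alfalfa hay. These contrasts share their control libraries, so the values of the members in them are not independent.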

How the data were processed

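The deposited values are CPM, which the authors made from 1 small RNA library per sample by dividing the reads of a miRNA by all reads mapped to annotated miRNAs. Per the study's methods, reads filtered with CASAVA 1.8 and over 15 nt long were mapped with sRNAbench to bovine precursors of miRBase, allowing 2 mismatches and up to 10 mappings, so similar miRNAs can share reads. The study describes its files as raw counts, but their values are CPM. Every value above 0 was a whole multiple of the sample's smallest step (tolerance 0.05 reads), which gave 937556 to 15621501 whole reads per library (median 5778304.5). No 2 libraries were identical.

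Samples were grouped by the tissue and diet in the labels. log2(CPM + 1) was tested with limma 3.58.1 (R 4.3.3). Tissues and the interaction were tested in a fit of all 90 samples over miRNAs listed in all 5 tissues. Diets were tested within each tissue over miRNAs above 1 CPM in more than 50% of its samples. Adjustment was by Benjamini-Hochberg with a threshold of 0.05. Ratios were compared by exact permutation tests. The named miRNAs were the 6 members, miR-424 and miR-503 products, and for each member the 3 non-members with the highest correlation; naming others by seed was not applied. Members and lists were chosen with earlier results of these data known. The alternatives were other pseudocounts, filters, scalings, tools (edgeR 4.0.16 and DESeq2 1.42.0 on whole reads), a replicate block and left-out libraries. Leaving out the 4 mammary gland libraries that stood apart, a spread for each tissue and the jejunum pairs were chosen after seeing the data. So was the liver mean without 1 library, and no test was run without that library. The series design takes 5 tissues from each cow, but the labels do not say that a number marks a cow. The fits over tissues therefore treat the 90 libraries as independent, and p-values measure the spread between these samples.

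The limma fits for tissues and for diets were run on simulated libraries drawn independently of each other. Those held neither shared cows nor libraries that stand apart, so the simulation does not cover these features of the data.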

Additional observations from a re-analysis of the deposited data

Results flagged for a closer look

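In 5 of 90 groups of 6 libraries a member had 1 value far from the other 5 by Dixon's criterion, and chance gives about 4.5. miR-16a was 1938 CPM in liver rice straw replicate 6, with the next value at 1352 CPM. miR-195 was 1249 CPM in liver corn stover replicate 5 (next 676 CPM) and 753 CPM in liver rice straw replicate 2 (next 549 CPM). miR-497 was 799 CPM in duodenum corn stover replicate 4 (next 568 CPM). miR-16b was 798 CPM in mammary gland alfalfa hay replicate 1 (next 1652 CPM), a library that stood apart from the other mammary gland libraries.

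The diet difference in mammary gland differed from the mean of the other 4 tissues (limma, interaction, log2) in 13 of 18 cases. For rice straw against corn stover it did so by -2.12 for miR-15a, -1.16 for miR-15b, -1.17 for miR-16a, -1.64 for miR-16b, -1.16 for miR-195 and -2.19 for miR-497. For rice straw against alfalfa hay it did so by -1.27 for miR-15a, -1.15 for miR-16a, -1.27 for miR-16b, -0.81 for miR-195 and -1.17 for miR-497. For corn stover against alfalfa hay it did so by 0.86 for miR-15a and 0.67 for miR-15b.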

How the results depend on the processing

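Over the single member values, 1031 of the alternative values kept direction and side of the threshold, 55 gained the threshold, 87 lost it and 35 changed direction. The cause was not tested for any of them. In mammary gland 86 miRNAs passed between rice straw and corn stover, 161 in the fit of all 90 samples, 41 with upper-quartile scaling, 36 with TMM scaling and 57 by edgeR. Leaving out 1 library gave 18 (rice straw 5) to 121 (alfalfa hay 1), with 42 without rice straw 1 or corn stover 1, 55 without corn stover 2, 40 without corn stover 3, 32 without corn stover 4 and 41 without corn stover 6. Between rice straw and alfalfa hay 0 became 61 in the fit of all samples, 13 by DESeq2 and 0 to 24 with 1 library left out (24 without alfalfa hay 1, 1 without rice straw 6). Between corn stover and alfalfa hay 0 became 75 in the fit of all samples. The interactions gave 37, then 17 (upper quartile), 2 (TMM), 4 (without the 4 libraries) and 0 (a spread for each tissue) for corn stover against alfalfa hay. They gave 65, then 0 (a spread for each tissue) for rice straw against alfalfa hay, and 160, then 97 (upper quartile) and 95 (a spread for each tissue) for rice straw against corn stover. The F test in mammary gland gave 12, then 0 and 19 with pseudocounts of 0.1 and 5 CPM and 61 without the 4 libraries. Between jejunum and duodenum 33 became 71 without the 4 libraries and 88 with a spread for each tissue, and in jejunum 0 between rice straw and alfalfa hay became 1 with TMM scaling. The log2 ratio of miR-16a to miR-16b between rice straw and alfalfa hay was -0.10 without the 4 libraries.

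The 90 libraries come from 18 cows, but the labels do not say that a number marks a cow. Over 180 pairs of the same diet and number across tissues the median correlation of their deviations was 0.0746, with 82 over 0.1. Over 900 pairs of the same diet and another number it was -0.0213, with 220 over 0.1. Of the 90 samples 35 were closest to their own number. The median and the share of pairs over 0.1 were thus higher for the same number than for another number. Single pairs cannot decide whether a number marks a cow, because both sets spread widely (-0.437 to 0.580 and -0.510 to 0.477). The labels do not state the pairing, so the block is given as an alternative only. Within a tissue the block was the number alone, which joins libraries of different diets and so of different cows. In mammary gland the median correlation over 18 such pairs was 0.0384, against -0.0036 over 90 pairs of another number and diet. With that block the F test gave 55 in mammary gland and 3 in rumen (5 without it). miR-16a then passed between rice straw and corn stover in mammary gland (limma adjusted p = 0.0373).

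Changes of direction, on the log2 scale, were as follows. miR-16a from rumen to liver became 0.23 (upper quartile), and from rumen to mammary gland 0.28 (upper quartile), 0.18 (TMM), 0.39 (without the 4 libraries) and 0.28 (edgeR). Without the 4 libraries, mammary gland against duodenum and jejunum became 0.086 and 0.14 for miR-16a and 0.45 and 0.045 for miR-497, and against liver 0.042 for miR-15b. For miR-497, liver against duodenum became 0.48, 0.12 and 0.11 (upper quartile, TMM, edgeR), liver against jejunum 0.093 (upper quartile), and mammary gland against duodenum 0.13 (upper quartile), 0.049 (edgeR) and 0.0045 (pseudocount of 5 CPM). Mammary gland against liver became -0.35, -0.17 and -0.045 for miR-16b and -0.35, -0.17 and -0.065 for miR-497 (upper quartile, TMM, edgeR). Between corn stover and alfalfa hay in mammary gland miR-16a became -0.60, -0.38, -0.36 and -0.39 and miR-195 -0.46, -0.24, -0.24 and -0.27 (upper quartile, TMM, edgeR, DESeq2), miR-16b -0.19 (upper quartile), and miR-16a -0.18 without alfalfa hay 1. The fewest reads behind a member value were 18, and the 4 libraries that stood apart had the fewest reads in mammary gland. The part of depth was not tested.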
